A study of Mus musculus with 44 samples.

Results

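The Wnt ligands described here are 10 genes of secreted Wnt proteins, Wnt2, Wnt4, Wnt5a, Wnt5b, Wnt6, Wnt9a, Wnt10a, Wnt10b, Wnt11 and Wnt16, picked by their symbols from the 55486 genes of the count table. All 10 passed the filter on low counts and were tested in every comparison. The family has 19 genes in the table, and the other 9 are described more briefly. The members were named for the family they belong to and not by a threshold on these data, but they were chosen with earlier results of these data known.

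The fibroblasts came from female En1-Cre;mTmG mice, in which cells with a history of En1 expression are GFP-positive and all other cells carry tdTomato. The recipients descended from En1-Cre mice crossed over 2 generations to mTmG mice of FVB/n background, and received fragments of mammary tissue beside their own intact fat pad. Donor tissue was control tissue, WB1P tissue (floxed Brca1 and Trp53 with WapCre, F/F for both genes, in which Cre is driven by the whey acidic protein promoter of the mammary epithelium) or WB1P-Myc tissue (the same alleles plus Col1a1 invCAG-Myc-IRES-Luc, which adds Myc). Control glands were matched for age. Their samples are labelled wildtype, and the study names WapCre-negative Cdh1F/F;PtenF/F donors where it describes control transplants. Whether these were the donors of the sequenced controls is not stated. The study describes the tumors as end stage, but 2 WB1P-Myc mice carry the extra mark 8x8. The labels do not explain it, and it has the form of the smaller tumor size, in mm, that the study elsewhere calls advanced, so that the stage of these 2 tumors is uncertain. Cells lacking EpCAM, CD49f, CD31 and CD45 were sorted by CD26 and GFP into En1+ and double- (both CD26-), CD26+ and double+ (both CD26+) fibroblasts, and all groups share the recipient genotype and this sort. The fibroblasts of glands with control tissue are called normal fibroblasts (NFs), those of tumors cancer-associated fibroblasts (CAFs).

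Wnt proteins are lipid-modified signals that act over short distances. The acyltransferase Porcn adds the lipid, the carrier Wls takes the protein to the cell surface, and Frizzled receptors bind it. With the co-receptors Lrp5 and Lrp6 a Wnt stabilises beta-catenin, while with Ror2, Ryk or Ptk7 it acts without beta-catenin on cell polarity and movement. Wnt2, Wnt6, Wnt9a, Wnt10a, Wnt10b and Wnt16 are mostly described as beta-catenin ligands, Wnt5a, Wnt5b and Wnt11 as ligands of the other branch, and Wnt4 as either. In the mammary gland Wnt4 is known as a signal downstream of progesterone, Wnt10b as an early embryonic signal and Wnt1 as the gene first found activated by the mouse mammary tumor virus.

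Several of the genes are neighbours. On GRCm38 (coordinates from the count table, identical in GENCODE M21), Wnt10b lies on chromosome 15 (98770712 to 98778150, minus strand) and Wnt1 next to it (98789857 to 98793837, plus strand), so that their starts are 11707 bases apart and point away from each other. Wnt6 (74771892 to 74785322) and Wnt10a (74791516 to 74804179) follow each other on the plus strand of chromosome 1, with 19624 bases between their starts. Wnt2 (17988940 to 18030585, minus strand) and Wnt16 (22288227 to 22298522, plus strand) are both on chromosome 6 but not adjacent. Wnt5a is on chromosome 14 (28504750 to 28527448, plus strand) and Wnt9a on chromosome 11 (59306928 to 59333552, plus strand). Exons of Wnt5a overlap those of the antisense gene Gm2670, which had at most 0.653 CPM (counts of a gene divided by all counts of the sum and scaled to a common total), and exons of Wnt11 overlap the pseudogene Gm8398 on the other strand, at most 0.0794 CPM. Whether counting used the strand is not given in the sources used here, so these overlaps stay uncertain.

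The promoters of Wnt2, Wnt16, Wnt10b and Wnt9a are shown because the CD26+ CAFs of every mouse had more of these 4 ligands than its CD26- CAFs. RefSeq promoters (GRCm38.p6) run from 250 bases before to 50 bases after the start given by RefSeq, on the strand of the gene, and 8 of the 10 members had one. Capitals mark GC boxes (GGGCGG or, on the other strand, CCGCCC).
Wnt2, chr6:18030396-18030695, minus strand: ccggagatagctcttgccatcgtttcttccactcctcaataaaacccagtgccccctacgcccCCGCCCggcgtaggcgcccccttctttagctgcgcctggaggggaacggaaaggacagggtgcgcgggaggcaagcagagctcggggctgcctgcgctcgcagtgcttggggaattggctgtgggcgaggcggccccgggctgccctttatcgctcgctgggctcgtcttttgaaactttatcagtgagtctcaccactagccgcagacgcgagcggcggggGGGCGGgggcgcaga
Wnt16, chr6:22287977-22288276, plus strand: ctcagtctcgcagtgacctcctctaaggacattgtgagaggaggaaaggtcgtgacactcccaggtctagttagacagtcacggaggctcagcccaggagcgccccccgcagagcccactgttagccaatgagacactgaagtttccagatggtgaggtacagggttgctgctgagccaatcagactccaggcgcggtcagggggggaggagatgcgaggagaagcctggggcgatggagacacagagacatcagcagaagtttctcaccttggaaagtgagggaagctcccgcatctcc
Wnt10b, chr15:98778101-98778400, minus strand: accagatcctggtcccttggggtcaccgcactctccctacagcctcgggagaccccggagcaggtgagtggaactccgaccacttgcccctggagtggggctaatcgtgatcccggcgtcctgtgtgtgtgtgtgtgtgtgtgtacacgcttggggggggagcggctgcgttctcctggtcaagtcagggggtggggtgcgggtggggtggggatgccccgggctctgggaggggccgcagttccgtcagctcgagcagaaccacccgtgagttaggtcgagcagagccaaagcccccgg
Wnt9a, chr11:59306680-59306979, plus strand: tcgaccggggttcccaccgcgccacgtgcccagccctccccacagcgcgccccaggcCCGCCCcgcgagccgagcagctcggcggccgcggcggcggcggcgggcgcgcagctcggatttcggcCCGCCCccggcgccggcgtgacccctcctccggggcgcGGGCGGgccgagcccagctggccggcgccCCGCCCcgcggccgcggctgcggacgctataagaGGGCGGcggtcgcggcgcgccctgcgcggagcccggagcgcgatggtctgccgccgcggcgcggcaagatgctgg

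Wnt2 had 1 GC box before and 1 after its start, Wnt9a had 5 before it, and the windows of Wnt16 and Wnt10b had none. A GC box was found in 35.7% of all 32851 promoters. None of the 4 windows held a TATA box (TATAAA, 13.6% of all promoters), a TCF/LEF core (CTTTGAT, 3.73%) or an AP-1 site (TGANTCA, 7.81%), each searched on both strands. The bases G and C made up 65.7% of the Wnt2, 58.0% of the Wnt16, 66.3% of the Wnt10b and 83.3% of the Wnt9a window, against a median of 52.7% over all promoters.

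The table holds 44 libraries of 13 mice with 5790599 to 15240328 counts on genes. Counts were summed per mouse and CD26 class into 25 sums, which gave 3 control mice in each class, 5 WB1P mice in the CD26- and 4 in the CD26+ class, and 5 WB1P-Myc mice in each. Some tumor sums held a single library. In the CD26- class these were WB1P mouse 10 (En1+ only) and WB1P-Myc mice 21 and 95 (double- only). In the CD26+ class they were WB1P mouse 12 and WB1P-Myc mice 67 and 95 (double+ only). Every other sum, and all those of controls, held both populations of its class. Each control label carries a pair of mouse numbers and was counted as 1 mouse. Dpp4, the gene of CD26, had 0.619 to 17.6 CPM in the CD26- sums and 223 to 846 CPM in the CD26+ sums, so that the classes were far apart in the gene they were sorted by. All 8 fibroblast markers on the list were present in every group. Markers of pericytes and smooth muscle (Rgs5, Cspg4, Mcam, Myh11, Cnn1, Des, Notch3, Kcnj8) summed to 1614 to 8829 CPM in CD26- CAFs, 178 to 262 CPM in CD26- NFs and 72.3 to 199 CPM in CD26+ fibroblasts. They were highest in WB1P mouse 10 and WB1P-Myc mouse 21, and the tests between NFs and CAFs and between the classes were also computed without those 2 mice. Of the 6 endothelial markers 5 reached a mean of 1 CPM in CD26+ NFs, and their sum was 177 to 542 CPM there against 36.6 to 61.1 CPM in CD26- NFs, and 69.3 to 173 CPM in CD26+ against 16.8 to 85.2 CPM in CD26- CAFs. Most of that sum in CD26+ cells was the receptor gene Tek (148 to 469 CPM in NFs and 49.6 to 141 CPM in CAFs), while Cdh5 and Cldn5 had means of at most 6.18 CPM there. By the test, Tek was higher in CD26+ than in CD26- NFs and no marker lower, and in CAFs Tek and Kdr were higher and Cdh5, Emcn and Cldn5 lower. Control mouse 49/52 stood apart, with proliferation markers (5 genes) at 5.33 and 3.69 CPM in its classes against 40.2 to 99.4 CPM in the other control mice, and 309 CPM of skeletal muscle markers in its CD26- sum. In sorted bulk samples, fewer cells with a transcript and less of it per cell cannot be told apart.

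Between genes, levels can be compared only per length, here as CPM per kilobase of exon, summed over the 19 Wnt genes of a mouse and expressed as a share. In CD26- NFs Wnt2 held the largest share of Wnt ligand RNA (35.1% ± 6.93, SD, n = 3), followed by Wnt5a, Wnt11 and Wnt9b. In CD26- CAFs Wnt2 held 7.71% ± 4.81 (n = 10), while Wnt5a held 32.8% ± 10.2, Wnt9a 25.5% ± 8.76 and Wnt11 19.5% ± 8.99. Without mice 10 and 21 (n = 8) these shares were 6.90%, 32.6%, 25.0% and 21.4%. In CD26+ NFs the leading ligands were on average Wnt2 (37.4% ± 7.03, n = 3) and Wnt10b (24.4% ± 13.1), in the reverse order in control mouse 49/52 (30.0% and 37.5%). In CD26+ CAFs they were Wnt2 (38.6% ± 7.53, n = 9) and Wnt9a (32.0% ± 7.73), with Wnt10b at 9.68% ± 3.11 and Wnt5a at 3.24% ± 1.39. Thus Wnt5a, which led on average in CD26- CAFs, was a minor ligand in CD26+ CAFs. In WB1P-Myc CD26- CAFs alone, Wnt5a (28.7% ± 9.70, n = 5) and Wnt9a (27.4% ± 8.93) were nearly equal. The summed level ranged from 38.9 to 76.4 CPM per kilobase in CD26- NFs, 42.9 to 99.3 in CD26- CAFs, 79.3 to 108.5 in CD26+ NFs and 65.5 to 132 in CD26+ CAFs, so that the ranges of NFs and CAFs overlapped in both classes.

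**Figure D1:**
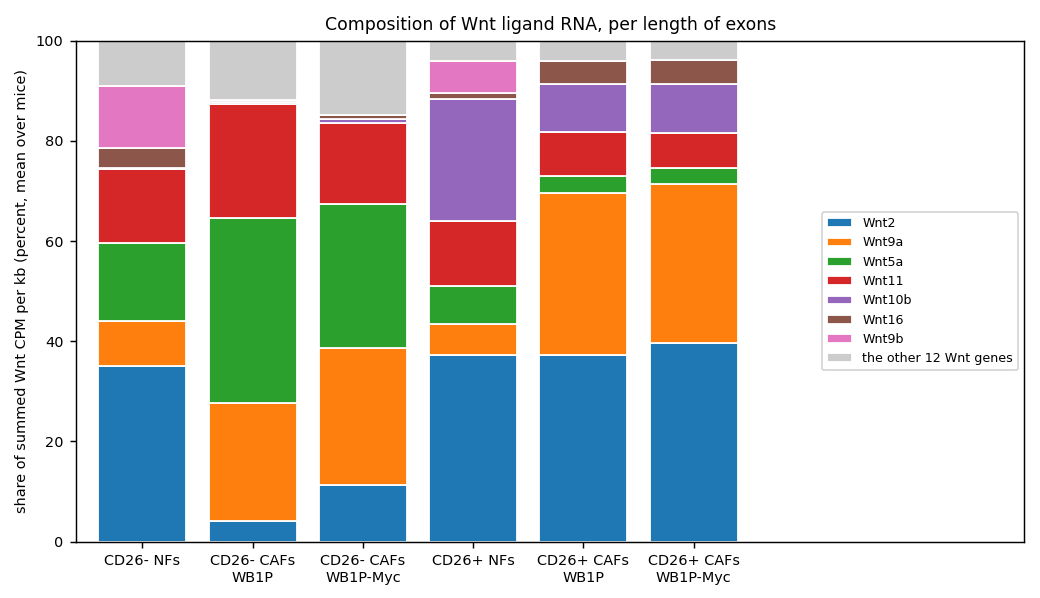
Stacked bars give the mean share (percent) of each Wnt gene in the summed Wnt CPM per kilobase of exon, for the 6 groups of mice. Wnt2 makes up 35.1% in CD26- NFs and 38.6% over both models in CD26+ CAFs but 7.71% in CD26- CAFs, where Wnt5a holds 32.8%.

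The first question was how tumors change the ligands of each CD26 class. In the CD26- class, Wnt5a, Wnt5b, Wnt9a and Wnt10b were higher in CAFs than in NFs and Wnt2, Wnt6 and Wnt16 lower (FDR under 0.05, edgeR), 4 members against 20.4% of all 16601 genes tested in the upward direction and 3 against 21.0% in the downward direction. In the CD26+ class Wnt9a and Wnt16 were higher and Wnt5a and Wnt6 lower, 2 members against 20.1% of all genes upward and 2 against 21.1% downward. The median log2 fold change of the members was 0.76 in the CD26- and -0.16 in the CD26+ class, beside 0.01 and -0.00 over all genes. Past a log2 fold change of 2 as well were 1 member upward (6.88% of all genes) and 3 downward (4.39%) in the CD26- class and 2 upward (4.24%) and none downward (3.76%) in the CD26+ class. The NF and CAF ranges did not overlap for 4 members in the CD26- class (Wnt2, Wnt5a, Wnt6, Wnt9a) and 1 in the CD26+ class (Wnt9a), as they did not for 23.5% and 24.0% of all genes, and by the test 41.3% and 41.2% of all genes were called in either direction. From NFs to CAFs the members not called and not described below by test were Wnt10a, with log2 fold changes of 1.08 (SE 0.90, FDR 0.34) in the CD26- and 0.85 (SE 1.02, FDR 0.53) in the CD26+ class, and Wnt4 in the CD26+ class (0.02, SE 0.71, FDR 0.99). Without the 2 mice richest in pericyte transcripts the counts were 4 higher and 4 lower in the CD26- class and 1 higher and 2 lower in the CD26+ class. Of all genes 6612 and 6701 were then called in these classes, against 6860 and 6847 in the main fit. Other markers also moved from NFs to CAFs. All 5 proliferation markers were called higher in both classes (127 to 422 CPM in sum in CD26- CAFs and 109.7 to 388 CPM in CD26+ CAFs). Of 6 endothelial markers, Tek, Cdh5, Pecam1 and Cldn5 were lower in the CD26- class, where Emcn was higher (log2 fold change 2.63, FDR 0.00021, edgeR). In the CD26+ class Emcn, Tek, Cdh5 and Cldn5 were lower and none was higher. All 5 skeletal muscle markers (0.929 to 74.2 CPM in CAFs against 62.2 to 309 CPM in NFs) and 3 of 5 adipocyte markers (0.266 to 12.1 against 3.15 to 16.0 CPM) were lower in the CD26- class. Of 6 basal epithelial markers, 1 was higher in the CD26- class (in sum 0.584 to 53.5 CPM in CAFs against 4.27 to 15.4 CPM in NFs). In the CD26+ class 1 was higher and 1 lower (in sum 0.178 to 24.8 against 1.94 to 7.42 CPM). Luminal epithelial markers summed to 24.0 to 184 CPM in CD26- CAFs (NFs 29.2 to 73.5) and 6.06 to 164 CPM in CD26+ CAFs (NFs 41.7 to 94.8). Of these 8, none was called in the CD26- class and 1 was lower in the CD26+ class. Immune markers summed to 11.1 to 107 CPM (NFs 21.1 to 31.1) and 21.2 to 219 CPM (NFs 19.5 to 30.5) in these CAFs. Of these 7, 2 were higher in the CD26- class, and 1 higher and 2 lower in the CD26+ class. The part of these transcripts in the results was not tested.

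The second question was how the classes differ. Among CAFs, CD26+ cells had more Wnt2, Wnt9a, Wnt10b and Wnt16 than CD26- cells and less Wnt4, Wnt5a, Wnt6 and Wnt10a, 4 members beside 19.1% of all genes upward and 4 beside 19.9% downward. Past a log2 fold change of 2 as well were 3 upward (2.47% of all genes) and 2 downward (5.14%). DESeq2 called 8 members, and its counts over all genes are not given here for the classes of CAFs or of NFs. Without the 2 pericyte-rich mice 4 members were higher and 4 lower, with 5115 of all genes called against 6471 in the main fit. In NFs only Wnt5b and Wnt10b passed the test, both higher in CD26+ cells (2 members, beside 2.67% of all genes upward and 1.49% downward), with 4 members at an unadjusted p under 0.05 (14.1% of all genes) and 3 called by DESeq2. The other log2 differences in NFs were -2.63 for Wnt4 (SE 0.86, FDR 0.097), -2.19 for Wnt6 (SE 0.78, FDR 0.14), -1.93 for Wnt10a (SE 1.15, FDR 0.52), -0.98 for Wnt16 (SE 0.80, FDR 0.73), -0.26 for Wnt5a (SE 0.37, FDR 0.90), 0.22 for Wnt9a (SE 0.40, FDR 0.92), 0.44 for Wnt11 (SE 0.45, FDR 0.82) and 0.63 for Wnt2 (SE 0.40, FDR 0.56). Wnt10b alone was also past a log2 fold change of 2 (1.42% of all genes upward, 0.765% downward). With the mouse as a paired factor, Wnt4 (FDR 0.0043), Wnt6 (FDR 0.012) and Wnt10a (FDR 0.033) were also called, as lower in CD26+ NFs, and so was Wnt4 without the pericyte-rich mice (FDR 0.0079). Over all genes 1916 were called with the paired factor and 706 without those mice, against 692 in the main fit. The ranges of the classes did not overlap in NFs for 6 members (Wnt2, Wnt5b and Wnt10b higher, Wnt4, Wnt6 and Wnt10a lower in CD26+ cells), as they did not for 20.1% of all genes, and in CAFs for 4 members (Wnt2, Wnt10b and Wnt16 higher, Wnt5a lower), as for 7.20% of all genes. By the test 4.17% and 39.0% of all genes were called in either direction. The sum of the endothelial list moved with the CD26 class, mostly through Tek, and the part of endothelial transcripts in these differences was not tested. All 8 pericyte and smooth muscle markers were called lower in CD26+ than in CD26- CAFs, a difference that leaving out 2 mice did not remove. The part of pericyte transcripts was not tested either.

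**Figure D2:**
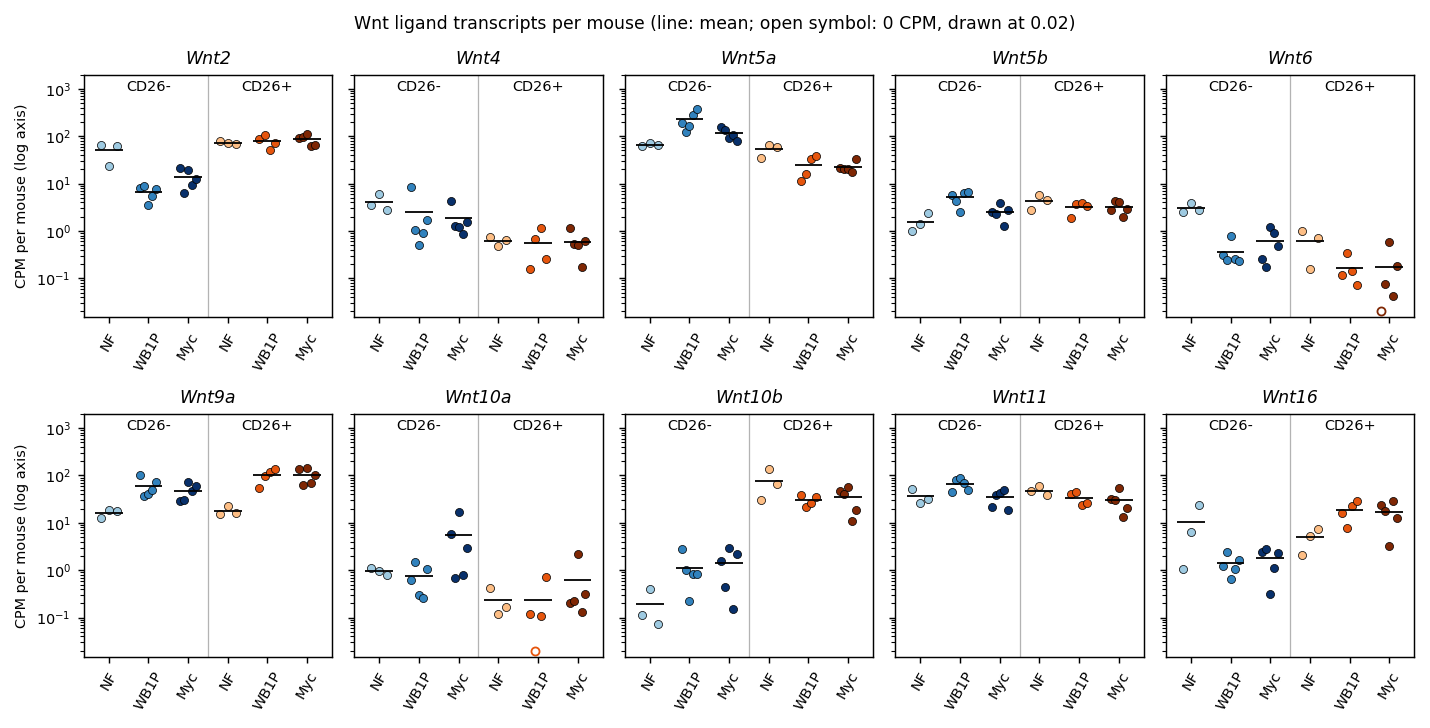
Each point is a mouse and each panel a Wnt ligand, with CPM on a logarithmic axis and the groups NF, WB1P and WB1P-Myc (Myc) shown for CD26- (left) and CD26+ cells (right). Lines are means and open points are values of 0. Wnt10b spans 0.0732 to 2.89 CPM in all CD26- sums and 11.1 to 138 CPM in all CD26+ sums.

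Wnt2, a beta-catenin ligand of mesenchyme known from lung development, held on average the largest share of Wnt RNA per length in NFs. In control mice 82/83, 49/52 and 44/46 it had 64.3, 23.9 and 61.4 CPM in CD26- and 78.6, 73.4 and 68.5 CPM in CD26+ cells. In WB1P tumors the CD26- cells of mice 10, 93, 12, 14 and 35 had 8.20, 8.77, 3.58, 5.59 and 7.60 CPM, and the CD26+ cells of mice 93, 12, 14 and 35 had 87.0, 105, 51.0 and 72.5 CPM. In WB1P-Myc tumors mice 21, 67, 95, 23 and 69 had 21.7, 6.43, 19.4, 9.46 and 12.4 CPM in CD26- and 91.1, 98.5, 113, 62.2 and 64.6 CPM in CD26+ cells. All 10 CD26- CAF values lay below the lowest CD26- NF value, and all 9 CD26+ CAF values lay above every CD26- value of tumors, while CD26+ NFs and CD26+ CAFs overlapped. From NFs to CAFs Wnt2 fell by 2.33 on the log2 scale in CD26- cells (SE 0.29, FDR 2.51e-06, edgeR) and differed by 0.30 in CD26+ cells (SE 0.33, FDR 0.49). In CAFs it was 3.26 higher in CD26+ than in CD26- cells on that scale (SE 0.24, FDR 1.02e-09), and higher in 9 of 9 mice. Both calls held in every alternative tried.

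Wnt16, a ligand described in bone and joint tissue, had an NF level that varied widely between mice. Control mice 82/83, 49/52 and 44/46 had 1.05, 6.40 and 24.0 CPM in CD26- and 2.15, 5.36 and 7.56 CPM in CD26+ cells. The CD26- cells of WB1P mice 10, 93, 12, 14 and 35 had 1.24, 2.47, 0.647, 1.05 and 1.65 CPM, and the CD26+ cells of mice 93, 12, 14 and 35 had 16.3, 7.77, 22.9 and 29.1 CPM. WB1P-Myc mice 21, 67, 95, 23 and 69 had 2.47, 2.85, 0.321, 1.14 and 2.31 CPM in CD26- and 23.6, 17.9, 3.20, 28.8 and 12.7 CPM in CD26+ cells. The classes did not overlap in CAFs and overlapped in NFs, where 1 of 3 control mice was higher in CD26+ cells. The log2 difference of CD26+ against CD26- CAFs was 3.63 (SE 0.50, FDR 4.56e-06, 9 of 9 mice higher). From NFs to CAFs Wnt16 fell by 2.59 in CD26- cells (SE 0.59, FDR 0.0015) and rose by 2.02 in CD26+ cells (SE 0.74, FDR 0.032) on the log2 scale. The fall rests on control mouse 44/46, without which it was -1.13 (FDR 0.21), and the rise was not called in 7 of 23 alternatives (FDR 0.052 to 0.091), namely without control mouse 82/83 or 49/52, WB1P mouse 35, WB1P-Myc mouse 23, the 8x8 mice or the pericyte-rich mice, and in WB1P-Myc alone.

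Wnt10b, a beta-catenin ligand known for holding back fat cell formation, was the member with the sharpest split between the classes. Its 3 control mice, in the order above, had 0.112, 0.395 and 0.0732 CPM (3, 10 and 2 counts) in CD26- and 30.2, 138 and 66.2 CPM in CD26+ cells. In WB1P tumors the CD26- cells of mice 10, 93, 12, 14 and 35 had 2.79, 0.996, 0.229, 0.830 and 0.845 CPM and the CD26+ cells of mice 93, 12, 14 and 35 had 37.8, 21.8, 26.3 and 34.8 CPM. In WB1P-Myc tumors mice 21, 67, 95, 23 and 69 had 1.53, 0.447, 2.89, 0.152 and 2.22 CPM in CD26- and 46.7, 39.9, 56.6, 11.1 and 18.3 CPM in CD26+ cells. No CD26- sum reached the lowest CD26+ sum in any group. The log2 difference between the classes was 8.68 in NFs (SE 1.04, FDR 1.85e-05, 3 of 3 mice) and 4.92 in CAFs (SE 0.47, FDR 3.61e-08, 9 of 9 mice). In CD26- cells Wnt10b rose by 2.66 from NFs to CAFs (SE 0.91, FDR 0.024), from a level near the floor of 3 counts, and this was not called without control mouse 82/83 (FDR 0.080) or 44/46 (FDR 0.12) or with libraries outside the En1 lineage alone (FDR 0.16). In CD26+ cells its log2 difference was -1.10 (SE 0.53, FDR 0.10), called with libraries of the En1 lineage alone (-1.18, FDR 0.041).

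Wnt9a, known from joint formation, was the only member that rose in both classes. In CD26- NFs it had 12.4, 18.6 and 17.6 CPM and in CD26+ NFs 15.2, 23.2 and 15.8 CPM. Levels in CD26- CAFs ran from 36.7 to 101 CPM in the 5 WB1P mice (median 49.6) and from 29.0 to 72.6 CPM in the 5 WB1P-Myc mice (median 48.1). In CD26+ CAFs they ran from 55.4 to 136 CPM in 4 WB1P mice and from 63.1 to 144 CPM in 5 WB1P-Myc mice. Every CAF value exceeded every NF value of its class. The log2 fold change from NFs to CAFs was 1.78 in CD26- (SE 0.36, FDR 0.00045) and 2.64 in CD26+ cells (SE 0.38, FDR 2.32e-05), and both held in all 23 alternatives. CD26+ CAFs were 1.08 above CD26- CAFs on the log2 scale (SE 0.22, FDR 0.00048, 9 of 9 mice), a difference called in all 24 alternatives, although the ranges overlapped.

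Wnt6 and Wnt10a, the neighbours on chromosome 1, are ligands also known to restrain fat cell formation, and both were low. Wnt6 had 2.55, 3.87 and 2.74 CPM in CD26- NFs and 0.998, 0.159 and 0.712 CPM in CD26+ NFs. In CD26- CAFs it ranged from 0.172 to 1.21 CPM (median 0.286, n = 10) and in CD26+ CAFs from 0 to 0.583 CPM (median 0.117, n = 9, 0 to 8 counts). All CD26- CAF values were below the CD26- NF values. The log2 fold change from NFs to CAFs was -2.61 in CD26- cells (SE 0.56, FDR 0.00078, called in 23 of 23 alternatives) and -1.94 in CD26+ cells (SE 0.68, FDR 0.026, called in 15 of 23). CD26+ CAFs were lower than CD26- CAFs by a log2 difference of -1.52 (SE 0.54, FDR 0.031, 9 of 9 mice lower, called in 16 of 24). Leaving out WB1P mouse 12, 14 or 35, WB1P-Myc mouse 23 or the mice marked 8x8 ended the last call (FDR 0.059 to 0.16), and leaving out control mouse 82/83 or 44/46, WB1P mouse 35 or the 8x8 mice ended the one in CD26+ cells (FDR 0.050 to 0.19). Neither of these 2 calls was made in WB1P alone (FDR 0.25 and 0.073, edgeR), WB1P-Myc alone (0.0996 and 0.064) or the En1 lineage alone (0.26 and 0.15). The one in CD26+ cells was also not made on only the groups compared (0.055).

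Wnt10a had 1.12, 0.987 and 0.805 CPM in CD26- NFs and 0.422, 0.119 and 0.170 CPM in CD26+ NFs. CD26- cells of WB1P mice ranged from 0.262 to 1.51 CPM, whereas WB1P-Myc mice 21, 67, 95, 23 and 69 had 5.71, 0.687, 17.0, 0.798 and 2.95 CPM. The CD26- sums of mice 21 and 95 held double- cells only, so that tumor model and sorted population cannot be told apart for them. In CD26+ CAFs it ranged from 0 to 2.18 CPM (median 0.208, n = 9). The highest values of both classes came from WB1P-Myc mouse 95. Its luminal epithelial markers summed to 132 CPM in CD26- and 81.2 CPM in CD26+ cells, the highest of that model. The part of epithelial transcripts in Wnt10a was not tested. CD26+ CAFs were lower than CD26- CAFs by a log2 difference of -2.17 (SE 0.66, FDR 0.012, 9 of 9 mice lower). This was not called without WB1P mouse 93 (FDR 0.054), in WB1P alone (FDR 0.33), or with libraries of the En1 lineage alone (-0.47, FDR 0.54).

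**Figure D3:**
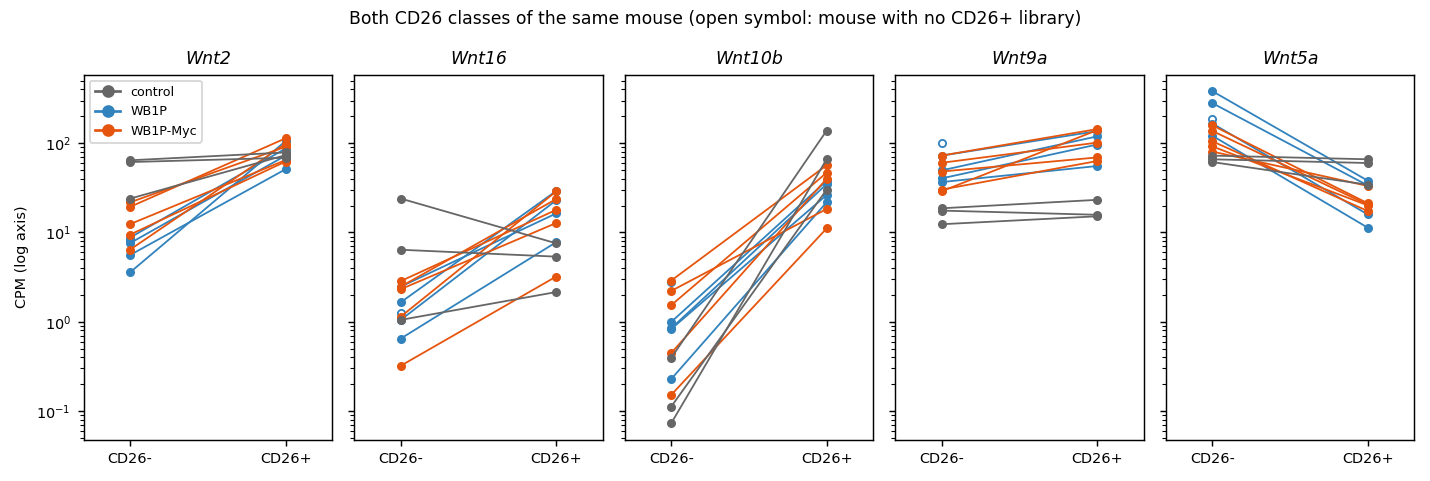
Lines join the CD26- and CD26+ cells of a mouse, in CPM on a logarithmic axis, for control (grey), WB1P (blue) and WB1P-Myc mice (orange). Wnt2, Wnt16, Wnt10b and Wnt9a are higher in CD26+ cells in 9 of 9 tumor mice and Wnt5a is lower in 9 of 9, while Wnt16 is higher in 1 of 3 control mice.

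Wnt5a, the main ligand of the branch without beta-catenin and a signal of mammary stroma, showed the reverse of Wnt2. Control mice 82/83, 49/52 and 44/46 had 61.4, 72.5 and 65.9 CPM in CD26- and 34.2, 66.0 and 59.9 CPM in CD26+ cells. The CD26- cells of WB1P mice 10, 93, 12, 14 and 35 had 186, 121, 166, 280.5 and 382 CPM, and the CD26+ cells of mice 93, 12, 14 and 35 had 11.3, 15.9, 33.6 and 37.9 CPM. WB1P-Myc mice 21, 67, 95, 23 and 69 had 158, 137, 91.8, 105 and 80.5 CPM in CD26- and 21.2, 20.5, 20.1, 17.4 and 33.2 CPM in CD26+ cells. Every CD26- CAF value exceeded every CD26- NF value, and the CAF classes were far apart, with 80.5 CPM as the lowest CD26- and 37.9 CPM as the highest CD26+ value. On the log2 scale Wnt5a rose by 1.32 from NFs to CAFs in CD26- cells (SE 0.33, FDR 0.0028) and fell by 1.04 in CD26+ cells (SE 0.29, FDR 0.0069). The rise was not called in WB1P-Myc alone (0.77, FDR 0.082), and the fall was not called without control mouse 49/52 (FDR 0.064) or 44/46 (FDR 0.051) or with libraries outside the En1 lineage alone (FDR 0.076). CD26+ CAFs were lower than CD26- CAFs by a log2 difference of -2.63 (SE 0.23, FDR 8.59e-09, 9 of 9 mice), called in all 24 alternatives.

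Wnt5b, its close paralog, was lower and moved otherwise. It had 0.974, 1.38 and 2.34 CPM in CD26- NFs and 2.76, 5.76 and 4.58 CPM in CD26+ NFs, where the classes did not overlap. CD26- CAFs ranged from 2.51 to 6.80 CPM in WB1P and from 1.25 to 3.94 CPM in WB1P-Myc mice, and CD26+ CAFs from 1.90 to 4.23 CPM over both models. The log2 fold change from NFs to CAFs was 1.25 in CD26- cells (SE 0.33, FDR 0.0049), not called in WB1P-Myc alone (FDR 0.14) or outside the En1 lineage (FDR 0.076), and -0.33 in CD26+ cells (SE 0.30, FDR 0.40). CD26+ NFs were 1.54 above CD26- NFs (SE 0.39, FDR 0.023, 3 of 3 mice). Leaving out any of the 3 control mice ended that call (FDR 0.063 to 0.34). In CAFs the difference was -0.04 (SE 0.22, FDR 0.89), with a positive sign in WB1P-Myc alone (0.50).

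Wnt11, which guides tissue movements in the embryo, passed no test between NFs and CAFs or between the classes. NFs had 52.6, 26.4 and 31.4 CPM in the CD26- class and 46.7, 58.7 and 38.3 CPM in the CD26+ class. CAFs had 18.3 to 89.1 CPM and 13.3 to 54.4 CPM in these classes. All 4 ranges overlapped. The log2 differences lay between -0.45 and 0.44, with the smallest FDR at 0.17 for CD26+ against CD26- CAFs.

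Wnt4 had 3.597, 5.88 and 2.71 CPM in CD26- NFs and 0.729, 0.476 and 0.644 CPM in CD26+ NFs, with no overlap. In CD26- CAFs WB1P mouse 10 had 8.28 CPM and WB1P-Myc mouse 21 had 4.35 CPM, the mice richest in pericyte transcripts, while the other 8 mice had 0.495 to 1.69 CPM. In CD26+ CAFs it ranged from 0.155 to 1.17 CPM (median 0.519, n = 9). The log2 difference of CAFs and NFs in CD26- cells was -0.92 (SE 0.61, FDR 0.23), and it was -1.78 (FDR 0.0020) without those 2 mice and -1.52 (FDR 0.015) without mouse 10 alone. CD26+ CAFs were lower than CD26- CAFs by a log2 difference of -1.69 (SE 0.50, FDR 0.010, 7 of 9 mice lower), not called in WB1P-Myc alone (FDR 0.17) or with libraries of the En1 lineage alone (FDR 0.088).

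**Figure D4:**
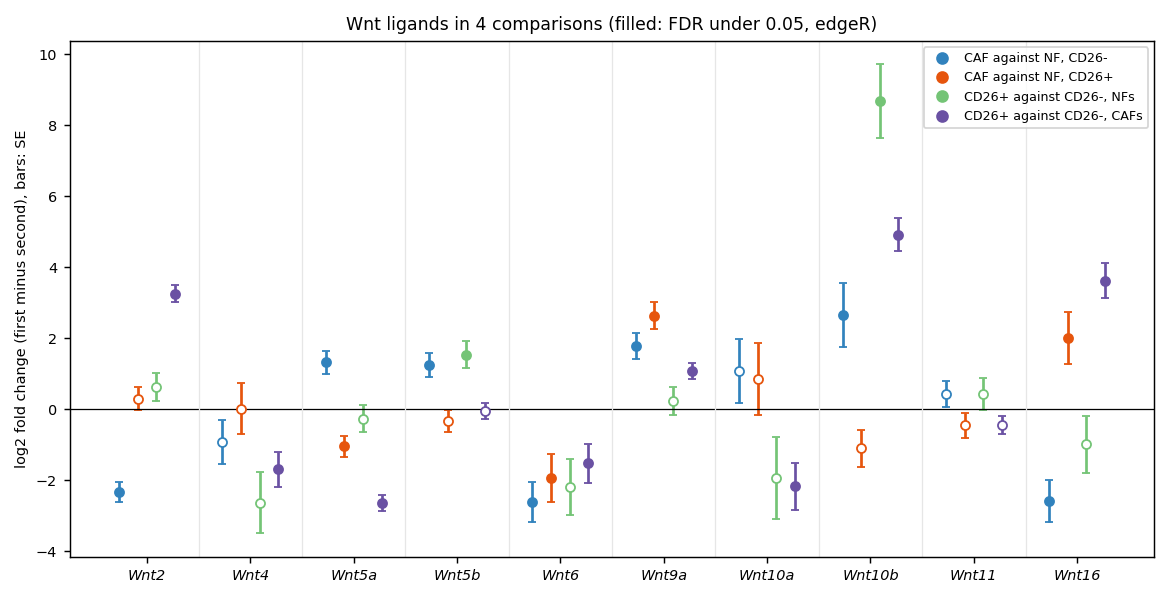
Points give the log2 fold change of each Wnt ligand in 4 comparisons (first group minus second) and bars its SE, and filled points have an FDR under 0.05 (edgeR). Wnt2 and Wnt5a lie on opposite sides of 0 in CD26- CAFs against NFs (-2.33 and 1.32) and in CD26+ against CD26- CAFs (3.26 and -2.63).

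Whether the change from NFs to CAFs differed between the classes was tested as an interaction, the log2 change in CD26+ minus that in CD26- cells. It was 2.63 for Wnt2 (SE 0.47, FDR 0.0031), 4.61 for Wnt16 (SE 0.99, FDR 0.013) and -2.37 for Wnt5a (SE 0.44, FDR 0.0042). These are 2 members beside 0.723% of all genes upward and 1 beside 1.39% downward (2.11% in either direction), and all 3 were past a log2 difference of 2, as were 0.265% of all genes upward and 1.03% downward. Wnt10b (-3.76, SE 1.06, FDR 0.067) and Wnt5b (-1.58, SE 0.44, FDR 0.066) missed the threshold and passed it with the mouse as a paired factor (FDR 0.011 and 0.015) or without WB1P-Myc mouse 23 (FDR 0.037 and 0.048). DESeq2 called 5 members (726 of all genes), and leaving out the pericyte-rich mice left 2 higher and 1 lower (273 of all genes). Without control mouse 44/46 none of the 10 members passed (FDR 0.059 for Wnt2, 0.18 for Wnt16 and 0.069 for Wnt5a), with values of 2.42, 3.56 and -2.26. Calls were then lost over the whole table, with 74 genes called against 351 in the main fit. Wnt16 was also not called without control mouse 49/52 (FDR 0.065). The other members had values of -0.89 (Wnt11, SE 0.52, FDR 0.51), -0.23 (Wnt10a, SE 1.40, FDR 0.97), 0.67 (Wnt6, SE 0.99, FDR 0.86), 0.86 (Wnt9a, SE 0.45, FDR 0.45) and 0.94 (Wnt4, SE 0.96, FDR 0.77).

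The order of the 6 groups by mean CPM differed among members. Wnt2 ran from CD26+ WB1P-Myc CAFs (85.9 ± 22.1 CPM, SD, n = 5), CD26+ WB1P CAFs (79.0 ± 23.0, n = 4) and CD26+ NFs (73.5 ± 5.05, n = 3), whose ranges overlapped, over CD26- NFs (49.9 ± 22.5, n = 3) to CD26- CAFs of WB1P-Myc (13.9 ± 6.50, n = 5) and WB1P (6.75 ± 2.14, n = 5). Wnt5a ran the other way, from CD26- WB1P (227 ± 105 CPM, n = 5) and WB1P-Myc CAFs (114 ± 32.2, n = 5) over CD26- NFs (66.6 ± 5.58, n = 3) and CD26+ NFs (53.4 ± 16.8, n = 3), to CD26+ CAFs of WB1P (24.7 ± 13.1, n = 4) and WB1P-Myc (22.5 ± 6.15, n = 5). Only the step from CD26- CAFs to CD26- NFs had no overlap between neighbours. For Wnt9a the only gap between neighbours was that between CAFs, the lowest being CD26- WB1P-Myc CAFs (48.0 ± 18.9, n = 5), and NFs, the highest being CD26+ NFs (18.04 ± 4.47, n = 3). For Wnt10b it lay between CD26+ WB1P CAFs (30.2 ± 7.43, n = 4) and CD26- WB1P-Myc CAFs (1.45 ± 1.16, n = 5). Wnt5b, Wnt10a, Wnt11 and Wnt16 had no gap between neighbours in their order.

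Whether adding Myc to the tumor changed the ligands of its fibroblasts was asked by comparing WB1P-Myc with WB1P CAFs. No member passed in edgeR in either class, beside 0.205% of all genes upward and 0.307% downward (0.512% in either direction) in CD26- cells and 0% in CD26+ cells. Past a log2 difference of 2 as well were 0.0482% of all genes upward and 0.0783% downward in CD26- cells. At an unadjusted p under 0.05 there were 5 members in CD26- cells, beside 14.5% of all genes, Wnt2 (log2 difference 0.85, SE 0.32, FDR 0.22), Wnt10a (2.58, SE 0.84, FDR 0.16), Wnt5a (-1.11, SE 0.29, FDR 0.080), Wnt5b (-1.18, SE 0.30, FDR 0.072) and Wnt11 (-1.09, SE 0.35, FDR 0.15), and none in CD26+ cells, beside 3.89%. The other 5 log2 differences in CD26- cells were -0.57 for Wnt4 (FDR 0.70), -0.46 for Wnt9a (FDR 0.50), 0.19 for Wnt10b (FDR 0.92), 0.23 for Wnt16 (FDR 0.90) and 0.54 for Wnt6 (FDR 0.72). In the En1 lineage alone, without the double- sums of WB1P-Myc mice 21 and 95, the Wnt10a difference was -0.48 (FDR 0.85, edgeR). DESeq2 called Wnt5a (FDR 0.013) and Wnt5b (FDR 0.0075) as lower in WB1P-Myc CD26- CAFs, and no member in CD26+ cells. The ranges of the models overlapped for all 10 members in both classes, and did not for 4.42% of all genes in CD26- and 0.548% in CD26+ cells. In CD26+ cells the differences of the 10 members lay between -0.28 (Wnt11) and 0.97 (Wnt10a), each at an FDR of 1.00.

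The En1 lineage did not separate the ligands at this depth. Over single libraries, no member passed in edgeR between En1+ and double- cells or between double+ and CD26+ cells, in CAFs or NFs, and DESeq2 called none. Of all 15584 genes tested, none was called between En1+ and double- CAFs (0%) and 0.0193% were called upward between double+ and CD26+ CAFs (0.00642% past a log2 difference of 2). In NFs 0.00642% were called upward both between En1+ and double- cells and between double+ and CD26+ cells. At an unadjusted p under 0.05 there were Wnt10a (-2.09, SE 0.61, FDR 0.46) and Wnt2 (-0.55, SE 0.26, FDR 1.00) in En1+ against double- CAFs (4.11% of all genes), and no member in the other 3 comparisons (4.05%, 1.05% and 0.340% of all genes), where log2 differences lay between -0.32 and 0.64 (double+ against CD26+ CAFs), -2.39 and 0.34 (En1+ against double- NFs) and -1.76 and 0.31 (double+ against CD26+ NFs).

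Among the other Wnt genes, 4 passed the filter. Wnt1, the neighbour of Wnt10b, had 0.806, 3.29 and 1.12 CPM in CD26+ NFs and 0 to 2 counts in CD26- NFs, and in CAFs its log2 difference between CD26+ and CD26- cells was 3.596 (SE 0.46, FDR 1.98e-06). Across the 25 sums the log2 CPM of Wnt1 and Wnt10b correlated with r = 0.92, with CD26 class and library shared by the points. Wnt9b, a ligand known from kidney tubule formation, had 81.3, 2.25 and 37.1 CPM in CD26- and 52.8, 0.198 and 13.8 CPM in CD26+ NFs, lowest in control mouse 49/52. It had 0 to 8 counts in CD26- CAFs and 0 to 1 in CD26+ CAFs, against 5 to 1375 counts in CD26+ NFs. Wnt7b rose from NFs to CAFs in both classes (log2 fold change 5.21, SE 1.11, FDR 0.00079 in CD26- and 3.82, SE 1.14, FDR 0.011 in CD26+ cells), and it was lower in CD26+ than in CD26- CAFs (-2.39, SE 0.57, FDR 0.0021), as was Wnt2b (-0.97, SE 0.34, FDR 0.025). These calls were also made without the pericyte-rich mice. Wnt3, Wnt3a, Wnt7a, Wnt8a and Wnt8b had 0 to 10 counts in every sum.

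The machinery around the ligands was described by lists chosen for the pathway, whose counts are to be read beside 20.4% of all genes called higher and 21.0% lower in CD26- CAFs against NFs, 20.1% and 21.1% in CD26+ CAFs against NFs, and 19.1% and 19.9% in CD26+ against CD26- CAFs. Of 6 genes of Wnt acylation and secretion, 1 was higher in CD26- CAFs than NFs (Porcn, 23.8 ± 8.35 CPM, n = 10, against 10.2 ± 1.35, n = 3, log2 fold change 1.28, FDR 0.0011) and 1 in CD26+ CAFs than NFs (Snx3, 0.33, FDR 0.040). Between the CAF classes, 1 was lower in CD26+ cells (Porcn, 10.2 ± 2.49 CPM, n = 9, log2 difference -1.11, FDR 5.9e-05) and 2 were higher, the retromer genes Vps26a (0.30, FDR 0.040) and Vps29 (0.24, FDR 0.022), neither of them called without the pericyte-rich mice. Of 16 receptors and co-receptors, 4 were higher and 6 lower in CD26- CAFs than in NFs, 3 higher and 5 lower in CD26+ CAFs, and 2 higher and 5 lower in CD26+ than in CD26- CAFs. The co-receptor Ptk7 of the polarity branch had 165 ± 79.0 CPM in CD26- NFs (n = 3) and 527 ± 166 in CD26- CAFs (n = 10, log2 fold change 1.69, FDR 0.0022), and 87.0 ± 28.4 in CD26+ CAFs (n = 9, log2 difference of -2.45 from CD26- CAFs, FDR 2.7e-07). Fzd10 was higher in CD26+ CAFs (6.32 ± 2.17 against 0.626 ± 0.480 CPM, log2 difference 3.45, FDR 5.3e-07). The R-spondins amplify Wnt signals through Lgr receptors, and of 9 genes of that group 1 was higher and 3 lower in CD26- CAFs than in NFs, 2 higher and 2 lower in CD26+ CAFs than in NFs, and 2 higher and 1 lower in CD26+ than in CD26- CAFs. Lgr5 rose in both classes, from 4.06 ± 4.52 to 31.9 ± 12.46 CPM in CD26- (log2 fold change 3.02, FDR 0.0030) and from 1.63 ± 0.770 to 23.1 ± 20.7 CPM in CD26+ cells (3.84, FDR 0.00093). Rspo1 fell in both, from 23.8 ± 12.2 to 2.07 ± 1.14 CPM in CD26- (-3.56, FDR 1.03e-06) and from 6.42 ± 3.54 to 0.921 ± 0.479 CPM in CD26+ cells (-2.73, FDR 9.4e-05).

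**Figure D5:**
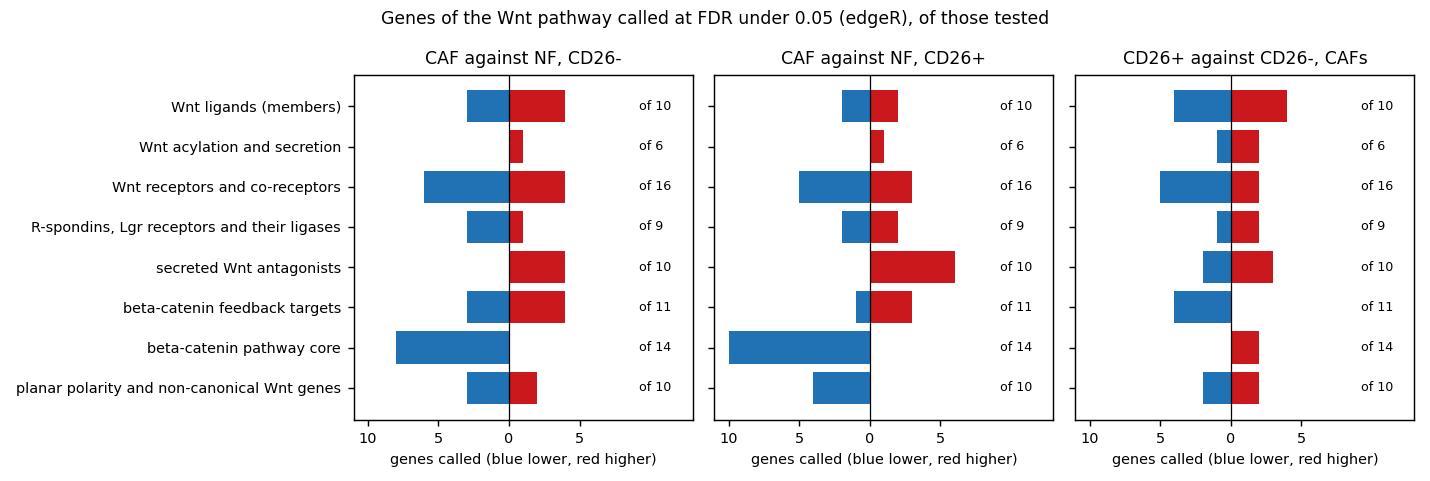
Bars give the number of genes called (FDR under 0.05, edgeR) as higher (red, right) or lower (blue, left) in each Wnt pathway list, with the number tested, for 3 comparisons. Secreted antagonists are called only as higher from NFs to CAFs (4 and 6 of 10) and beta-catenin pathway core genes only as lower (8 and 10 of 14).

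Of 10 secreted Wnt antagonists tested, 4 were higher and none lower in CD26- CAFs than in NFs (median log2 fold change 1.32, beside 0.01 over all genes), and 6 were higher and none lower in CD26+ CAFs (median 1.52), while 3 were higher and 2 lower in CD26+ than in CD26- CAFs. Dkk2, which blocks the co-receptor Lrp6, rose in both (log2 fold change 2.02, FDR 0.00030 and 2.59, FDR 5.5e-05), as did the decoy receptor Sfrp4 (2.61, FDR 0.0033 and 1.86, FDR 0.022). Of 11 feedback targets of beta-catenin, 4 were higher and 3 lower in CD26- CAFs than in NFs and 3 higher and 1 lower in CD26+ CAFs, while none was higher and 4 were lower in CD26+ than in CD26- CAFs (median log2 difference -0.69). Lgr5, also on this list, rose in both classes (log2 fold change 3.02 and 3.84). Apcdd1 rose in CD26- cells (1.67, FDR 0.0020) and Nkd2 in CD26+ cells (1.297, FDR 0.0033). Tnfrsf19 fell in CD26- cells (-1.77, FDR 0.032). Axin2, the common readout of beta-catenin signalling, fell in CD26- cells (log2 fold change -1.22, FDR 0.0043) and in CD26+ cells (-1.005, FDR 0.019). In CD26+ cells Axin2 went from 26.4 ± 14.1 CPM (n = 3) among NFs to 12.9 ± 6.73 among CAFs (n = 9). Nkd2 was 28.6 ± 10.4 CPM in CD26+ against 113 ± 39.6 in CD26- CAFs (log2 difference -1.92, FDR 3e-07). Of 14 core genes of the beta-catenin pathway none was higher and 8 were lower in CD26- CAFs than in NFs, and none higher and 10 lower in CD26+ CAFs, while 2 were higher and none lower in CD26+ than in CD26- CAFs. Their medians from NFs to CAFs were -0.50 and -0.47, with Tcf7l1 at -1.13 (FDR 3e-05) and -0.86 (FDR 0.00085). Of 10 genes of planar polarity, 2 were higher and 3 lower in CD26- CAFs than in NFs, none higher and 4 lower in CD26+ CAFs, and 2 higher and 2 lower in CD26+ than in CD26- CAFs, with Daam2 at 7.35 ± 2.201 CPM in CD26+ and 47.0 ± 26.3 in CD26- CAFs (log2 difference -2.48, FDR 4.5e-07). Between the classes of NFs, 2.67% of all genes were called higher and 1.49% lower in CD26+ cells. In these lists there were 1 antagonist higher (Sfrp4, 2.82, FDR 0.028) and 1 lower (Dkk3, -2.002, FDR 0.0024), 2 feedback targets lower (Nkd2 and Tnfrsf19), and Lgr4 higher (0.66, FDR 0.0070). Without the pericyte-rich mice the polarity genes had none higher in CD26- CAFs than in NFs (2 with them, Vangl2 at FDR 0.054 and Celsr1 at FDR 0.056), and the other counts from NFs to CAFs moved by at most 1 gene.

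By log2 CPM over the 25 sums, which share mice, class and depth, the genes most like Wnt2 were Glrb (r = 0.93), Pamr1 (0.92) and Pcdh20 (0.92), and those most like Wnt10b were Sema3e (0.96), Ackr3 (0.95) and Ildr2 (0.95). For Wnt5a they were Cttnbp2 (0.92), Lmo7 (0.91) and Cmtm4 (0.90), for Wnt9a Shisa5 (0.91), Polb (0.91) and Leprot (0.91), and for Wnt16 Rtl3 (0.84), Adamts15 (0.84) and Rabgap1l (0.84). Wnt6 was nearest to Fam180a (0.88), Tmem51 (0.85) and Zfp536 (0.85), Wnt4 to Tnfrsf19 (0.86), Rnf113a2 (0.82) and Nkd1 (0.80), and Wnt11 to Hs6st1 (0.82), Homer3 (0.81) and Mir22hg (0.79). Wnt10a was nearest to Irf8 (0.82), Pik3cb (0.82) and Mrpl38 (0.81), and Wnt5b to Rab38 (0.72), Spock3 (0.72) and AC149090.1 (0.71). Among members Wnt2 and Wnt5a had r = -0.90, and Wnt2 had r = 0.72 with Wnt10b and 0.70 with Wnt16.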

How the data were processed

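Stranded mRNA libraries of sorted mouse mammary fibroblasts were sequenced as paired-end reads. The authors deposited unnormalized counts of reads per gene (55487 lines, 1 of them without a gene name and at 0 counts throughout). The submitters' processing notes name HISAT2 2.2.1 and GRCm38, and the counter and annotation are not given in the sources used here. The members and gene lists were chosen with earlier results of these data known. Every member is reported in every comparison, in the En1 comparisons and between the models in CD26+ cells by the range of values, and from each pathway list at most 3 called genes with the largest change and at least 5 CPM in the higher group. Axin2 in CD26- cells, Vangl2 and Celsr1 were named besides these. CPM used plain library totals, and means ± SD are over mice.

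Counts were summed per mouse and CD26 class (En1 comparisons used single libraries), filtered with filterByExpr, scaled by TMM and tested with the quasi-likelihood test of edgeR 4.0.16 in R 4.3.3, all groups in 1 fit, WB1P and WB1P-Myc weighted equally, and p-values were adjusted by Benjamini-Hochberg over the whole table (FDR). Correlations used log2 CPM with a prior count of 2, among genes with a median of at least 5 CPM in a group. Libraries of one mouse are pairs by their labels, and deviations of its CD26 classes from the group means correlated with r from 0.237 to 0.668 over genes (12 mice). Alternatives were DESeq2 1.42.0 (size factors, Wald test), no filter, only the groups compared, mouse as a paired factor, each mouse left out, the 8x8 mice left out, 1 En1 class or 1 model alone, and, chosen after seeing the data, leaving out the 2 mice with most pericyte transcripts. On simulated counts over 16601 genes, 8-fold changes were recovered in 98 of 100 genes for CAFs against NFs in CD26- cells, 100 of 100 for CD26+ against CD26- CAFs and 88 of 100 for the interaction, and 2-fold changes in 55, 74 and 32 of 100. False calls numbered 8, 8 and 4. The changes were placed only in genes with a mean above 1 CPM, and sums of one mouse were drawn independently. The rates therefore do not cover less abundant genes or the pairing of classes within mice. Whether the control labels with a pair of numbers are pools is not stated, and p-values measure the spread between these samples. No library was a copy of another (63 pairs within groups compared). Floors of 3 counts cover counting error only.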

Additional observations from a re-analysis of the deposited data

Results flagged for a closer look

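In 40 groups of 4 or 5 tumor mice (10 members in 4 groups), 6 held a mouse far above the others. The rule flags about 2 of 40 for independent groups of normally spread values. These groups share mice and some rest on low counts, so no conclusion is drawn from the number flagged. Wnt4 was highest in WB1P mouse 10 (8.28 CPM, next 1.69) and WB1P-Myc mouse 21 (4.35 CPM, next 1.53) among CD26- CAFs, the mice with the most pericyte transcripts (4687 and 8829 CPM). Wnt5a stood at 33.2 CPM in the CD26+ cells of WB1P-Myc mouse 69 (next 21.2). Wnt6 stood at 0.800 CPM in the CD26- cells of WB1P mouse 12 (next 0.310, 21 counts). Wnt10a stood at 0.724 CPM in the CD26+ cells of WB1P mouse 35 (next 0.117, 20 counts) and at 2.18 CPM in those of WB1P-Myc mouse 95 (next 0.312, 30 counts).

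The change from NFs to CAFs differed between CD26+ and CD26- cells by the interaction test for Wnt2 (2.63 on the log2 scale), Wnt16 (4.61) and Wnt5a (-2.37), by edgeR at FDR 0.0031, 0.013 and 0.0042.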

How the results depend on the processing

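Of 24 differences of single members that passed the test, 10 passed in every alternative and none changed direction. Over their 558 alternative values, 511 stayed past the threshold and 47 did not. The number of members called moved by more than 1.5 times as follows. In CD26+ cells, 4 were called between CAFs and NFs, but 2 without the mice marked 8x8 or in WB1P-Myc alone, and 2 to 4 with each mouse left out (2 without control mouse 82/83, 49/52 or 44/46 or WB1P mouse 35). Over all genes, 6847 were called, 6230 without the 8x8 mice, 5753 in WB1P-Myc alone and 4569 to 6647 without the single mice named. In CD26- cells, where 7 members were called, it was 5 to 8 with each mouse left out. Between the classes of NFs, 2 were called, 1 to 3 with each mouse left out (1 without any of the 3 control mice) and 5 with the mouse as a paired factor (replicate block). Over all genes, 692 were called and 1916 with the replicate block. Without control mouse 82/83, 49/52 or 44/46 there were 480, 230 and 175. Between the classes of CAFs, 8 were called, 7 to 8 with each mouse left out and 5 with libraries of the En1 lineage alone (4882 of all genes there, against 6471). For the interaction, 3 were called, 5 with the replicate block, 5 by DESeq2, and 0 to 5 with each mouse left out (0 without control mouse 44/46, 5 without WB1P-Myc mouse 23). Over all genes, 351 were called, 1010 with the replicate block and 726 by DESeq2. Without control mouse 44/46 there were 74, and without WB1P-Myc mouse 23 there were 302. Between WB1P-Myc and WB1P CD26- CAFs, 0 were called, 2 by DESeq2 and 1 with the En1 lineage alone (85, 402 and 44 of all genes). The replicate block changed no other count by this much. A fit on only the groups compared was not run for the interaction, which needs all 6 groups.

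Differences that were not called changed sign as follows. Wnt10a between CAFs and NFs was -0.20 in CD26- cells in WB1P alone and -0.52 in CD26+ cells outside the En1 lineage. Wnt11 was -0.11 in CD26- cells in WB1P-Myc alone. Wnt4 in CD26+ cells was -0.0030 with DESeq2's size factors, -0.0041 with its Wald test, -0.40 outside the En1 lineage, -0.029 in WB1P alone, -0.21 without the pericyte-rich mice, and -0.39 to 0.20 with each mouse left out. Wnt16 between the classes of NFs ran from -1.26 to 0.068 with each mouse left out. Wnt5b between the classes of CAFs ran from -0.16 to 0.0085 with each mouse left out and was 0.10 in the En1 lineage and 0.50 in WB1P-Myc alone. In the interaction, Wnt6 was -0.078 outside the En1 lineage, and Wnt10a was 1.60 in the En1 lineage, 0.57 in WB1P alone and -0.88 to 0.36 with each mouse left out. Wnt10a between the models in CD26- cells was -0.48 in the En1 lineage, a setting that holds no CD26- library of WB1P-Myc mice 21 and 95. The cause of these changes was not tested. No scaling moved the median of all genes by over 0.1. Low counts limit Wnt6, Wnt10a and Wnt4 in CD26+ cells, where single sums held as few as 0 to 4 counts, and 3 control mice limit every comparison with NFs.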
